A study of Mus musculus with 6 samples.

Results

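Enzymes that break down amino acids in liver were compared between Mir137−/− and Mir137+/+ mice. The set was a list of 51 enzymes chosen by name and grouped by the amino acid they act on, with no threshold on a measured value. It was chosen with earlier results of these data known, so its shares beside all genes are descriptive and were not tested. Of these, 48 had a value among the 18193 genes measured, each read from its brightest probe set. Sds and Sdsl, which deaminate serine and threonine, and Amt, a part of the glycine cleavage system, were not analysed here. The livers came from untreated mice at postnatal day 14 (P14), with 3 Mir137−/− and 3 Mir137+/+ animals and 1 mouse per array. The Mir137−/− mice lacked miR-137, a microRNA best known from neurons, in every tissue from the germ line on, through deletion of exons that contain it. The allele was made in embryonic stem cells of a strain other than the C57BL/6 blastocysts that received them, and most mice of the study were born to heterozygous littermates of the first cross, so a mixed background is part of the model. Nothing in the labels says which array shared a litter with which.

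The deleted gene makes a mature strand from each arm of its hairpin, and both are shown because they are what the knockout removes. The sequences and positions are those of RefSeq on GRCm38.p6, at chr3:118433901-118433923 for the 3p strand and chr3:118433865-118433887 for the 5p strand, both on the plus strand. Capitals mark the seed, bases 2 to 8 from the 5′ end.
mmu-miR-137-3p: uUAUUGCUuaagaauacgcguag
mmu-miR-137-5p: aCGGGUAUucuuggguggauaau
Mir137 had no probe set under that name, so these arrays cannot show its loss.

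The liver is the main site of amino acid breakdown. Most pathways there begin with removal of the amino group or with a dedicated dehydrogenase or lyase, pass the nitrogen to glutamate, alanine or ammonia for the urea cycle, and send the carbon skeleton to pyruvate, ketone bodies or the citric acid cycle. Hormones of the fasted state, glucagon and glucocorticoids, are known to raise many of these enzymes, and Tat is a classical marker of hepatocyte maturation around birth. The branched-chain amino acids are an exception, since their first transamination takes place mostly in muscle and other tissues outside the liver.

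The tissue had the markers of liver on all arrays. A list of 8 hepatocyte genes deviated by -0.02 to 0.02 from the Mir137+/+ mean (median log2 deviation per array), and 0 of the 8 rose or fell. Several arrays differed in ways the genotype label does not name. On Mir137+/+ replicates 2 and 3, Xist reached log2 levels of 10.91 and 10.81, whereas 3.66 to 4.24 was read elsewhere. The Y-linked Eif2s3y was low on the same 2 arrays (2.06 and 2.51, against 8.46 to 8.62 elsewhere), although the methods name male mice. This is the pattern of female mice. The Mir137−/− arrays and Mir137+/+ replicate 1 had the male pattern, so sex and genotype were partly confounded. Skeletal muscle genes (18 genes, Acta1 and Tnnt1 the brightest on average) lay 3.01 above the Mir137+/+ mean on Mir137−/− replicate 1 and between -0.06 and 0.14 elsewhere. Exocrine pancreas genes (17 genes, Pnliprp1 and Cela1 the brightest on average) lay 2.57 above it on Mir137−/− replicate 2 and 1.37 above it on Mir137+/+ replicate 2, against -0.81 to -0.57 on the other 4. Markers of neutrophil precursors and B cell precursors were lower in Mir137−/−, with 7 of 8 and 5 of 6 genes fallen. Among all genes tested, 3.34% fell. In bulk liver, fewer cells of a type and less RNA per cell cannot be told apart. The part of these differences in the results below was not tested, but the counts by adjusted p, the median and the 5 enzymes that fell are also given without arrays concerned.

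None of the 48 measured enzymes of the set rose in Mir137−/− liver, and 5 fell. A gene was called risen or fallen at a Benjamini-Hochberg adjusted p below 0.05 (limma, over all 18193 genes) and a change of more than 1.5-fold. The 5 that fell were Prodh and Gpt, which start the breakdown of proline and alanine, Hal and Aass, which start that of histidine and lysine, and Acadsb, a dehydrogenase in isoleucine breakdown. They made up 10.4% of the 48 measured enzymes, whereas 3.34% of all genes tested fell and 2.34% rose. A further 12 enzymes had an adjusted p below 0.05 with a change under 1.5-fold, from -0.57 to -0.33 on the log2 scale. All 17 were lower in Mir137−/−, 35.4% of the enzymes measured, against 6.9% of all genes on the lower side and 5.07% on the higher side.

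The remaining 31 enzymes did not pass and ranged from -0.82 to 0.24. At an unadjusted p below 0.05 (limma), 27 enzymes were lower and 0 higher, beside 14.6% of all genes lower and 12.2% higher. In 29 of the 48 enzymes every Mir137−/− array lay below every Mir137+/+ array, and in 0 enzymes every one lay above, whereas 17.4% of all genes had such separate groups on the lower side and 14.9% on the higher side. The difference was negative for 40 enzymes, positive for 7 and 0.00 for Bckdhb. The median log2 difference over the 48 enzymes was -0.28, beside 0.00 over all genes tested. These enzymes are abundant in liver, and 45 of the 48 were among the brightest 20% of genes by mean level. Among the 3630 genes of that bright share, 4.57% fell, 10.6% had an adjusted p below the threshold on the lower side, and the median was -0.04.

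**Figure D1:**
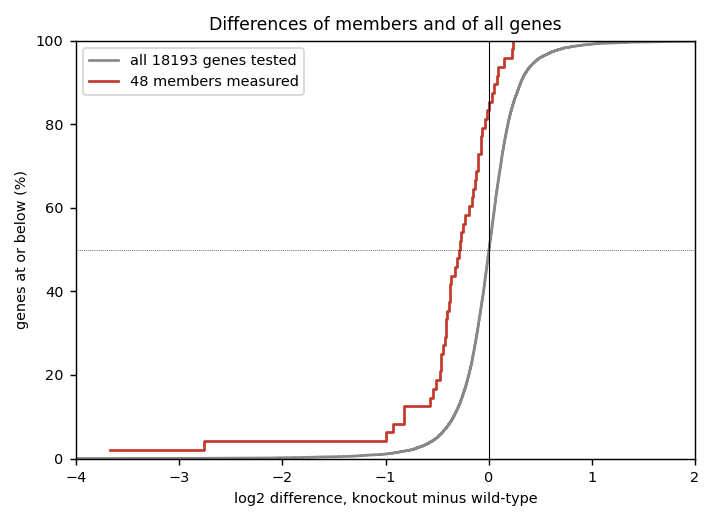
Cumulative share of genes (y, %) at or below each log2 difference, Mir137−/− minus Mir137+/+ (x), for the 48 enzymes measured (red) and for all 18193 genes tested (grey). The enzymes lie to the left of all genes, with a median of -0.28 against 0.00, and 2 of them, Prodh and Gpt, stand below -2.

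**Figure D2:**
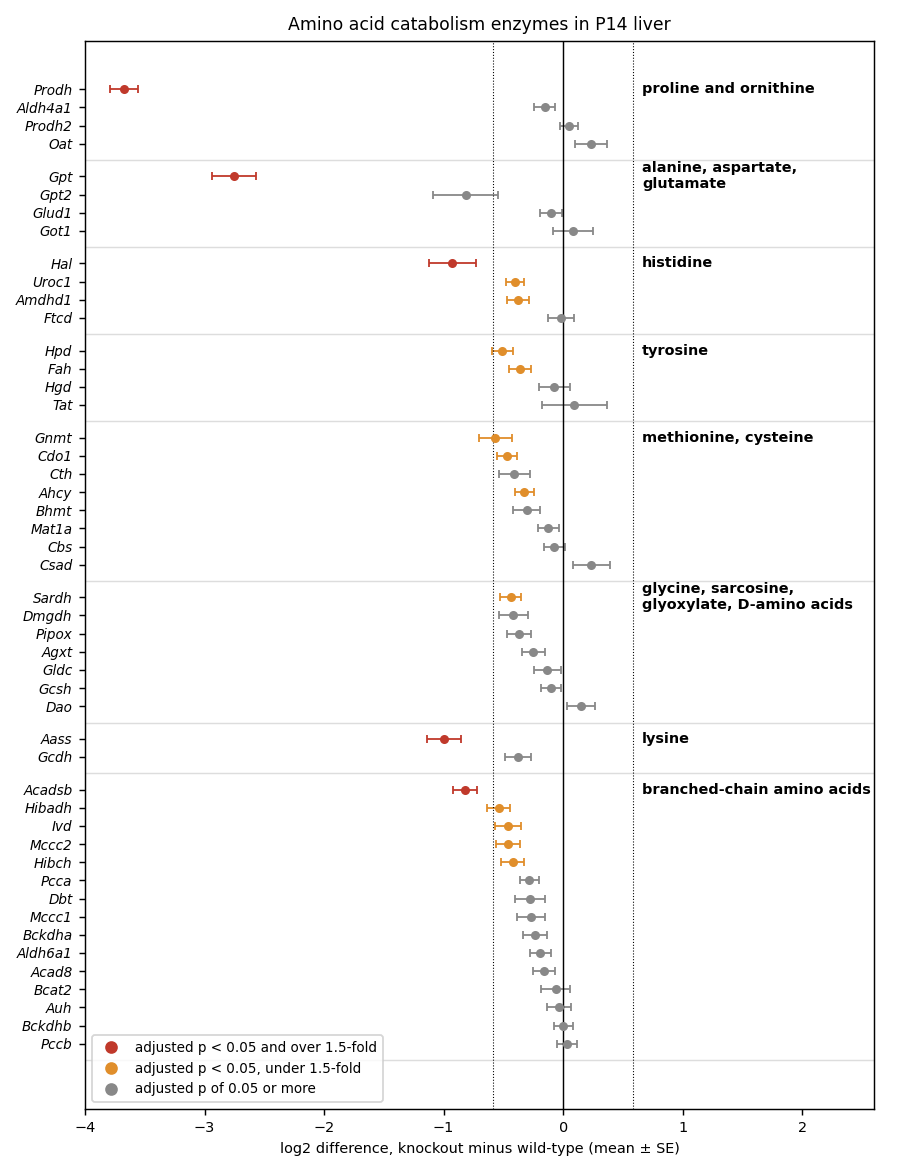
Log2 difference of each enzyme (x, Mir137−/− minus Mir137+/+, mean with the standard error of the fit), ordered by the amino acid it acts on. Red marks the 5 that fell, orange the 12 with adjusted p below 0.05 and less than 1.5-fold, grey the other 31, and dotted lines mark 1.5-fold in each direction.

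These counts moved with the arrays used. Without the 2 Mir137+/+ arrays with high Xist, which leaves 3 Mir137−/− arrays against Mir137+/+ replicate 1, 2 enzymes fell (Prodh and Gpt) and the same 2 had an adjusted p below 0.05, while 42 of 48 differences were negative and the median was -0.31. Without the 2 arrays with pancreas transcripts, 7 fell, since Gpt2 and Cth were added to the 5, and the median was -0.36, whereas the number with an adjusted p below 0.05 dropped from 17 to these 7. That number was 3 with sex as a term, 9 under the methods' t-test and 24 with eBayes set to trend and robust. When Mir137−/− replicate 2 was left out alone, 8 fell, and when any other single array was left out, 4 fell, with Hal lost each time. The number with an adjusted p below 0.05 ranged from 6 to 17 as single arrays were left out. It was 6 without Mir137+/+ replicate 1 and without Mir137+/+ replicate 3, 9 without Mir137−/− replicate 1 and without Mir137+/+ replicate 2, 10 without Mir137−/− replicate 3 and 17 without Mir137−/− replicate 2. No enzyme had an adjusted p below 0.05 on the higher side in any of these fits.

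Promoters are shown for the 4 fallen enzymes that the RefSeq table holds, Prodh, Hal, Aass and Acadsb, so that the genes that fell together can be compared. Each is the 250 bases before the start site on GRCm38.p6, written 5′ to 3′ along the gene. They lie at chr16:18089191-18089440 on the minus strand for Prodh, chr10:93488518-93488767 on the plus strand for Hal, chr6:23132987-23133236 on the minus strand for Aass and chr7:131410351-131410600 on the plus strand for Acadsb. Capitals mark CCAAT or its reverse complement ATTGG, and TATAAA or its reverse complement TTTATA.
Prodh: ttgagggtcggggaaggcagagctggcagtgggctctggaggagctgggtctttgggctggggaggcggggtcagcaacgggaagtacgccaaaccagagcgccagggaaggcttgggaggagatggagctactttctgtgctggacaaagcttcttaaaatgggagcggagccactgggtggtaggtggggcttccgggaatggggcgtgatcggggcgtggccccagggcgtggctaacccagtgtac
Hal: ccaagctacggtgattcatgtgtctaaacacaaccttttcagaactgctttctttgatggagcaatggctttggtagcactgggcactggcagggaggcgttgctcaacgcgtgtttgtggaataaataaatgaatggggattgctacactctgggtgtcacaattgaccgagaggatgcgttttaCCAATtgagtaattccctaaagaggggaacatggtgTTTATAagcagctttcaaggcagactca
Aass: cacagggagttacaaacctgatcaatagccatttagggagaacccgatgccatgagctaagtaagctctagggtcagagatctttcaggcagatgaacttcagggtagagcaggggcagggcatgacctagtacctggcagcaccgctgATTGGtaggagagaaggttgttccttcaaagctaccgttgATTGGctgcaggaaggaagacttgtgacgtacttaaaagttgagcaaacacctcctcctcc
Acadsb: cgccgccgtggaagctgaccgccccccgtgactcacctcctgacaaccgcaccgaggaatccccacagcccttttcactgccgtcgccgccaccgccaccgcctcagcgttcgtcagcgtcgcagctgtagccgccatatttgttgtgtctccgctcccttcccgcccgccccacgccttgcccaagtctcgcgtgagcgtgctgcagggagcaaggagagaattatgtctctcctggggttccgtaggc
The 4 windows shared no layout of these letters. The Hal window held 1 CCAAT, at -64 from the start site, and 1 TATAAA on the other strand, at -28. In the Aass window CCAAT stood on the other strand at -101 and -61, and the windows of Prodh and Acadsb held neither motif. GC content was 63.2% for Prodh, 65.6% for Acadsb, 50% for Aass and 45.6% for Hal, and the Acadsb window alone among the 4 held GGGCGG on either strand, 3 times. Of the 48 enzymes, 43 had a promoter in the table. CCAAT was in 25 of those 43 on either strand (58.1%), beside 34.5% of 27025 gene promoters, TATAAA was in 3 (6.98%), beside 13.0%, and GGGCGG was in 19 (44.2%), beside 32.9%. CACCC, searched as well, was in 30 (69.8%), beside 51.3%. Some of these motifs can share bases where they meet, and a match is a description of the window only.

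Proline breakdown held the largest difference of the set. Prodh, the mitochondrial proline dehydrogenase that takes proline to pyrroline-5-carboxylate, was at a log2 level of 4.85, 5.12 and 4.94 on Mir137−/− replicates 1 to 3 and at 8.53, 8.58 and 8.83 on Mir137+/+ replicates 1 to 3. The groups lay far apart, and the Mir137−/− values were close to the median of all probe sets on an array, 4.88 to 4.91. Prodh fell by 3.68 on the log2 scale (SE 0.12, adjusted p = 2.56e-05, limma, n = 3 each), which is 12.8-fold in the deposited values and a lower bound if the Mir137−/− level was background, since no detection calls were used. It kept its call in all 17 alternative fits, where the difference ranged from -3.79 to -3.56. Prodh was read from 1 probe set, so no other probe set checks it.

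The neighbouring steps were close to the Mir137+/+ level. Prodh2, which oxidises hydroxyproline, was at 10.70, 10.66 and 10.64 in Mir137−/− and 10.61, 10.59 and 10.65 in Mir137+/+, a difference of 0.05 (SE 0.08, adjusted p = 0.739, limma) with overlapping groups. Aldh4a1, which takes pyrroline-5-carboxylate on to glutamate, differed by -0.15 (SE 0.09, adjusted p = 0.311, limma). Oat, the ornithine aminotransferase that feeds the same intermediate, differed by 0.23 (SE 0.13, adjusted p = 0.328, limma), with Mir137−/− replicate 3 inside the Mir137+/+ range.

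Gpt, the cytosolic alanine aminotransferase that is measured in serum as a sign of liver injury, was the other large change. Its log2 level was 7.67, 8.26 and 7.49 in Mir137−/− and 10.61, 10.53 and 10.55 in Mir137+/+. All Mir137−/− arrays were far below all Mir137+/+ arrays, with replicate 2 the highest of the 3. Gpt fell by 2.76 (SE 0.18, adjusted p = 3.31e-04, limma), a 6.76-fold change, and was called in all 17 alternative fits at differences from -3.00 to -1.08. The smallest of these came from its other probe set, which lay at 6.10, 6.30 and 5.93 in Mir137−/− and 7.17, 7.14 and 7.27 in Mir137+/+. Both probe sets thus showed separate groups, at different sizes.

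Gpt2, the mitochondrial alanine aminotransferase, divided the Mir137−/− animals. Its log2 level was 9.01, 10.01 and 8.91 in Mir137−/− and 9.99, 10.06 and 10.33 in Mir137+/+. Replicates 1 and 3 were about 1 log2 unit low, while replicate 2, the array with the most pancreas transcripts, reached the Mir137+/+ range, and all 4 Gpt2 probe sets had replicate 2 as the highest Mir137−/− array. The difference of -0.82 (SE 0.27, adjusted p = 0.0964, limma) did not pass. Without Mir137−/− replicate 2 it was -1.17 (adjusted p = 0.005, limma). Without both arrays with pancreas transcripts, which leaves replicates 1 and 3 of each genotype, it was -1.20 (adjusted p = 0.027, limma). These were the only 2 of 17 alternative fits in which Gpt2 was called. Under the methods' t-test its adjusted p was 0.282.

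Exchange of nitrogen with aspartate and glutamate gave small values. Got1, the cytosolic aspartate aminotransferase, was at 11.34, 11.91 and 11.25 in Mir137−/− and 11.46, 11.32 and 11.47 in Mir137+/+, a difference of 0.08 (SE 0.17, adjusted p = 0.806, limma). Its sign rested on Mir137−/− replicate 2, without which the difference was -0.12. Glud1, the glutamate dehydrogenase that releases ammonia, differed by -0.10 (SE 0.09, adjusted p = 0.544, limma).

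Of the 4 enzymes that take histidine to glutamate in turn, the first 3 were lower in Mir137−/−. Hal, the histidine ammonia lyase, was at 8.38, 9.20 and 8.56 in Mir137−/− and 9.68, 9.59 and 9.65 in Mir137+/+. The groups did not overlap, and the Mir137−/− arrays spread over 0.82 against 0.09 in Mir137+/+, with replicate 2 the highest. Hal fell by 0.93 (SE 0.19, adjusted p = 0.0216, limma). This call was lost when any array but Mir137−/− replicate 2 was left out, at adjusted p from 0.0517 to 0.0731 (limma), and it was lost without the arrays with high Xist (-0.97, adjusted p = 0.275). Without the arrays with pancreas transcripts Hal differed by -1.20 (adjusted p = 0.0147, limma).

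The next enzymes of the pathway differed less but evenly. Uroc1, the urocanate hydratase, was at 10.49, 10.47 and 10.46 in Mir137−/− and 10.89, 10.88 and 10.85 in Mir137+/+, a difference of -0.40 (SE 0.08, adjusted p = 0.0154, limma). Its values hardly varied within a genotype, and its other probe set was lower by 0.61 on the log2 scale. Amdhd1, the imidazolonepropionase, was at 9.98, 10.20 and 10.06 in Mir137−/− and 10.47, 10.53 and 10.38 in Mir137+/+, a difference of -0.38 (SE 0.09, adjusted p = 0.0379, limma) with separate groups. Ftcd, which passes the last one-carbon unit to folate, differed by -0.02 (SE 0.11, adjusted p = 0.933, limma).

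Tyrosine breakdown was uneven. Tat, the tyrosine aminotransferase that opens the pathway, was at 10.55, 11.48 and 10.40 in Mir137−/− and 10.89, 10.44 and 10.82 in Mir137+/+. Replicate 2 of Mir137−/− was the highest of all arrays and the other Mir137−/− arrays lay inside or just below the Mir137+/+ range. The difference of 0.09 (SE 0.27, adjusted p = 0.869, limma) turned to -0.24 without that array and to -0.38 without both arrays with pancreas transcripts. Hpd, the hydroxyphenylpyruvate dioxygenase of the next step, was at 11.87, 11.88 and 11.86 in Mir137−/− and 12.47, 12.42 and 12.25 in Mir137+/+, a difference of -0.51 (SE 0.09, adjusted p = 0.0109, limma). The Mir137−/− values of Hpd lay within 0.02 of each other. Hgd, which opens the ring of homogentisate, differed by -0.07 (SE 0.13, adjusted p = 0.771, limma), and its fainter probe set had the opposite sign (0.25). Fah, the fumarylacetoacetase at the end, was at 11.57, 11.65 and 11.45 in Mir137−/− and 11.97, 11.83 and 11.95 in Mir137+/+, a difference of -0.36 (SE 0.09, adjusted p = 0.0420, limma), with separate groups.

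Methionine and cysteine enzymes had a median difference of -0.32 over 8 genes, and 3 of them passed without reaching 1.5-fold. Over all genes tested, 6.9% had an adjusted p below 0.05 on the lower side. Gnmt, which consumes S-adenosylmethionine to methylate glycine, was at 11.69, 11.86 and 11.32 in Mir137−/− and 12.19, 12.15 and 12.23 in Mir137+/+. All 3 Mir137−/− arrays were lower, and they spread over 0.54 against 0.08. The difference of -0.57 (SE 0.14, adjusted p = 0.0360, limma) was just short of 1.5-fold (0.585 on the log2 scale) and passed it without Mir137−/− replicate 2 (-0.69). Ahcy, which splits the S-adenosylhomocysteine so formed, was at 11.98, 11.90 and 11.90 in Mir137−/− and 12.28, 12.20 and 12.28 in Mir137+/+, a difference of -0.33 (SE 0.08, adjusted p = 0.0375, limma). Cdo1, the cysteine dioxygenase that commits cysteine to sulfate and taurine, was at 11.79, 11.82 and 11.84 in Mir137−/− and 12.33, 12.19 and 12.34 in Mir137+/+. It differed by -0.47 (SE 0.08, adjusted p = 0.0117, limma), with a gap of more than 0.3 between the groups.

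Other steps of the sulfur amino acids did not pass. Mat1a, which makes S-adenosylmethionine in liver, differed by -0.12, and Cbs, which joins homocysteine with serine, by -0.07 (adjusted p = 0.424 and 0.665, limma). Bhmt, which returns homocysteine to methionine, differed by -0.30 (SE 0.11, adjusted p = 0.131, limma). Cth, the cystathionine lyase that yields cysteine, was at 10.65, 11.03 and 10.67 in Mir137−/− and 11.31, 11.03 and 11.24 in Mir137+/+, a difference of -0.41 (SE 0.13, adjusted p = 0.0850, limma). The groups of Cth met only at replicate 2, the arrays with pancreas transcripts in both genotypes. Without these, which leaves replicates 1 and 3 of each genotype, the difference was -0.62 (adjusted p = 0.046, limma). Of 17 alternative fits, this was the only 1 in which Cth was called. Its adjusted p was 0.209 under the methods' t-test and 0.0288 with eBayes set to trend and robust. Csad, which decarboxylates cysteine sulfinate towards taurine, had the most positive difference of the set, 0.24 (SE 0.16, adjusted p = 0.391, limma), with Mir137−/− replicate 2 below the Mir137+/+ arrays and the other Mir137−/− arrays above them.

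Among 7 enzymes of glycine, sarcosine, glyoxylate and D-amino acids the median was -0.25, and Sardh alone had an adjusted p below 0.05. Sardh, the mitochondrial sarcosine dehydrogenase, was at 10.49, 10.44 and 10.39 in Mir137−/− and 10.99, 10.77 and 10.88 in Mir137+/+, a difference of -0.44 (SE 0.09, adjusted p = 0.0202, limma). Its groups were separate, and its other probe set was lower by 0.45. Dmgdh, which acts just before it on dimethylglycine, differed by -0.42 (SE 0.12, adjusted p = 0.0650, limma), and Pipox, the peroxisomal oxidase of sarcosine and pipecolate, by -0.37 (SE 0.10, adjusted p = 0.0578, limma). Agxt, the alanine-glyoxylate aminotransferase of peroxisomes, differed by -0.25 (adjusted p = 0.147, limma). These 4 enzymes and Gcsh had separate groups, all on the lower side, beside 17.4% of all genes tested on that side. The glycine cleavage system gave -0.13 for Gldc, which decarboxylates glycine, and -0.10 for its lipoyl carrier Gcsh (adjusted p = 0.503 and 0.477, limma). Dao, the D-amino acid oxidase, was at a group mean of 4.40 in Mir137−/− and 4.25 in Mir137+/+, below the array medians, and differed by 0.15 (adjusted p = 0.476, limma).

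Lysine was represented by its entry enzyme and a later one. Aass, the bifunctional aminoadipate semialdehyde synthase that starts lysine breakdown in mitochondria, was at 9.47, 9.82 and 9.27 in Mir137−/− and 10.58, 10.43 and 10.54 in Mir137+/+. The nearest values of the groups were more than 0.6 apart, and Mir137−/− replicate 2 was again the highest of the 3. Aass fell by 0.997 on the log2 scale (SE 0.14, adjusted p = 0.00446, limma). The call held with any single array left out, at -1.15 to -0.87, and with the arrays with pancreas transcripts left out (-1.19, adjusted p = 0.0157), but not without the arrays with high Xist (-1.06, adjusted p = 0.128, limma). Gcdh, which oxidises the glutaryl-CoA formed from lysine and tryptophan, differed by -0.38 (SE 0.11, adjusted p = 0.0654, limma), with separate groups.

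Branched-chain amino acids had the most enzymes, 15, with a median difference of -0.27. Of the 15, 5 passed, all lower, beside 6.9% of all genes tested on the lower side. These 5 were all later than the opening steps that the 3 amino acids share. Early and late steps were not tested against each other. Bcat2, the mitochondrial transaminase of muscle and other tissues, was dim, with group means of 5.70 and 5.76, and differed by -0.06 (adjusted p = 0.789, limma). Of the dehydrogenase complex that commits the keto acids, Bckdha differed by -0.23, Bckdhb by 0.00 and Dbt by -0.28, with adjusted p of 0.179, 1 and 0.212 (limma). None of these subunits passed.

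In the isoleucine branch, Acadsb, the dehydrogenase of 2-methylbutyryl-CoA, was at 8.31, 8.49 and 8.61 in Mir137−/− and 9.34, 9.28 and 9.25 in Mir137+/+. The groups were more than 0.6 apart, and here replicate 2 was the middle of the Mir137−/− arrays. Acadsb fell by 0.82 (SE 0.10, adjusted p = 0.00237, limma). It was read from 1 probe set, of a type (_x_at) whose probes may also match other transcripts, so it has no value when such probe sets are left out. Without the arrays with high Xist it differed by -0.87 (adjusted p = 0.107, limma), and without those with pancreas transcripts by -0.84 (adjusted p = 0.0449, limma).

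In the leucine branch, 2 of 4 enzymes passed, both lower, beside 6.9% of all genes tested on the lower side. Ivd, the isovaleryl-CoA dehydrogenase, was at 9.29, 9.49 and 9.15 in Mir137−/− and 9.87, 9.69 and 9.76 in Mir137+/+, a difference of -0.46 (SE 0.11, adjusted p = 0.0333, limma). Mccc2, the beta subunit of methylcrotonyl-CoA carboxylase, was at 8.55, 8.65 and 8.53 in Mir137−/− and 9.14, 8.87 and 9.10 in Mir137+/+, a difference of -0.46 (SE 0.10, adjusted p = 0.0246, limma). Both had separate groups, and every further probe set of Ivd and Mccc2 was lower on average too. The alpha subunit Mccc1 differed by -0.27 (SE 0.12, adjusted p = 0.187, limma), and Auh, the hydratase of the next step, by -0.04 (SE 0.10, adjusted p = 0.857, limma).

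In the valine branch, 2 of 4 enzymes passed as well, both lower, beside the same 6.9% of all genes tested. Hibch, which frees hydroxyisobutyrate from CoA, was at 9.30, 9.50 and 9.36 in Mir137−/− and 9.93, 9.77 and 9.73 in Mir137+/+, a difference of -0.42 (SE 0.10, adjusted p = 0.0298, limma). Hibadh, which oxidises it next, was at 10.75, 10.93 and 10.72 in Mir137−/− and 11.38, 11.38 and 11.26 in Mir137+/+, a difference of -0.54 (SE 0.09, adjusted p = 0.0103, limma). The groups were separate for both, and the other probe set of each was lower as well. The dehydrogenases on either side differed less, with -0.16 for Acad8 and -0.19 for Aldh6a1 (adjusted p = 0.329 and 0.207, limma). The propionyl-CoA carboxylase that receives the carbon of isoleucine and valine differed by -0.28 for Pcca (SE 0.08, adjusted p = 0.0592) and by 0.03 for Pccb (SE 0.08, adjusted p = 0.865, limma).

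**Figure D3:**
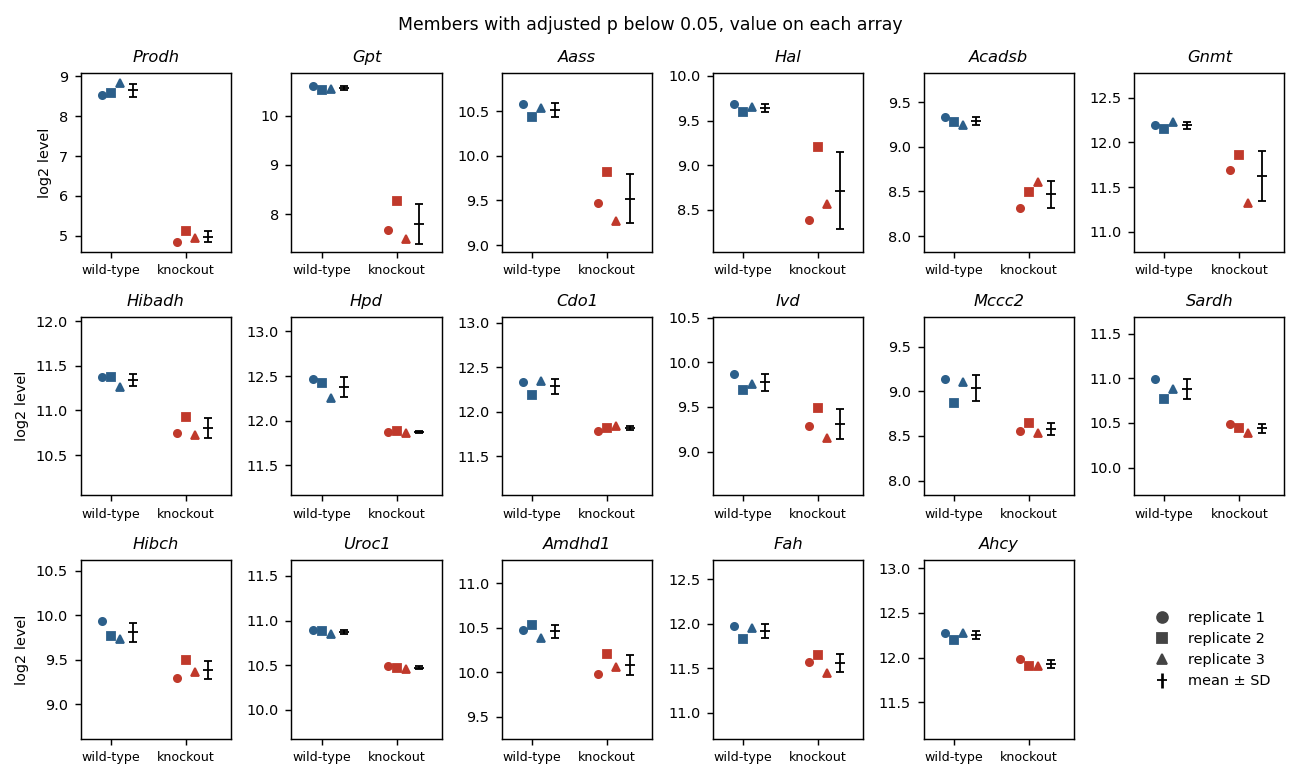
Log2 level (y) of the 17 enzymes with adjusted p below 0.05 on each array, with Mir137+/+ in blue, Mir137−/− in red, replicates 1 to 3 by marker shape, and group mean with SD beside the points. The y axes start at different levels, and Prodh and Gpt span more log2 units than the others. In every panel all Mir137−/− points lie below all Mir137+/+ points.

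The Mir137−/− animals were not alike in these enzymes. Replicate 2 was the highest of the 3 Mir137−/− arrays in 30 of the 48 enzymes (62.5%), beside 39.8% of all genes tested. Its median deviation from the Mir137+/+ mean was -0.20, beside -0.29 on replicate 1 and -0.33 on replicate 3, whereas the Mir137+/+ arrays lay at 0.04, -0.05 and 0.01. Thus all Mir137−/− arrays had a lower median than all Mir137+/+ arrays. In 5 enzymes, Gpt2, Tat, Hal, Gpt and Got1, replicate 2 stood more than 0.5 above the next Mir137−/− array, by 0.57 to 1.0. How many of all genes had such a gap was not counted. Mir137−/− replicate 2 also held the most pancreas transcripts. Mir137+/+ replicate 2, which held them too, was the lowest Mir137+/+ array for Tat, Hal, Gpt and Got1, but not for Gpt2. The part of those transcripts in these values was not tested.

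**Figure D4:**
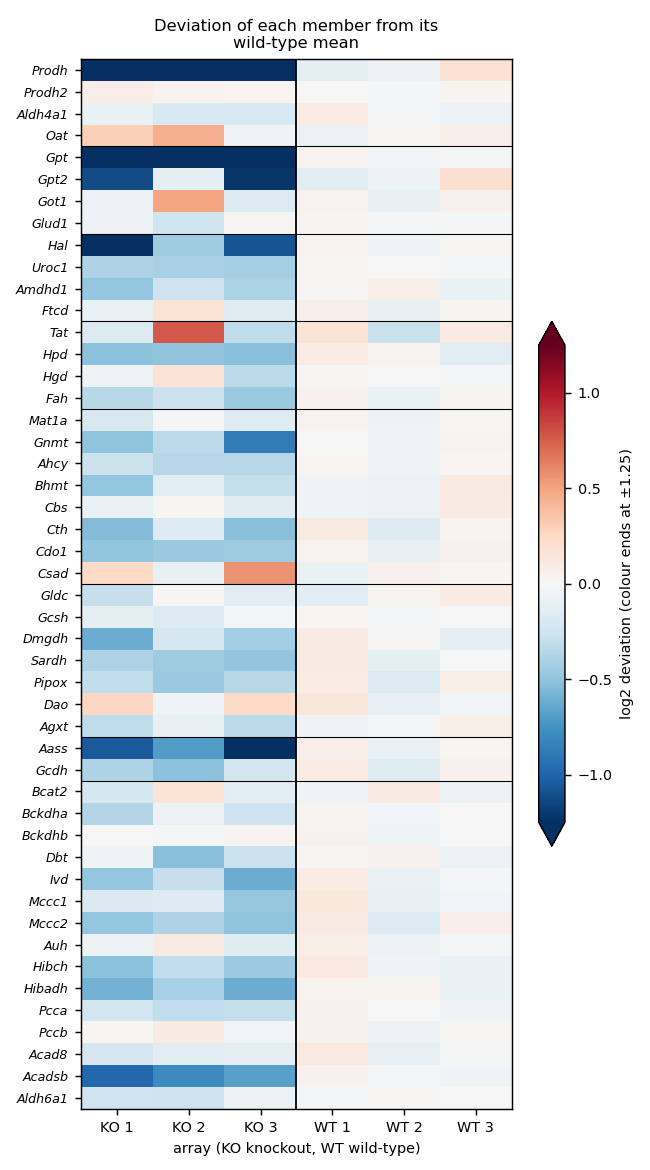
Log2 deviation of each enzyme from its Mir137+/+ mean (colour, blue lower and red higher, saturating at the ends of the scale) on each array (x), in the order of the amino acid groups with lines between them. Mir137−/− replicate 2 is paler or redder than replicates 1 and 3 in most rows, and was the highest of the 3 in 30 of 48.

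Related enzymes were set against each other within arrays, as 5 pairs. The within-array log2 difference of 2 enzymes was compared between genotypes by a two-sided exact permutation test, which cannot give a p below 0.1 for 3 against 3, and p was adjusted over the 5 pairs. Prodh changed by -3.73 relative to Prodh2, and Gpt by -1.94 relative to Gpt2, each with separate groups and exact p = 0.1 (adjusted p = 0.167). The Gpt value depended on the probe sets, being -1.16 when all probe sets of each gene were averaged and -0.30 when those ending in _s_at or _x_at were left out. Pccb changed by 0.49 relative to Mccc2, the like subunit of the sister carboxylase, also with separate groups (exact p = 0.1, adjusted p = 0.167). By contrast, the alpha subunits Pcca and Mccc1 differed from each other by -0.01 in response, and Dmgdh and Sardh by 0.02, each with exact p = 1.

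**Figure D5:**
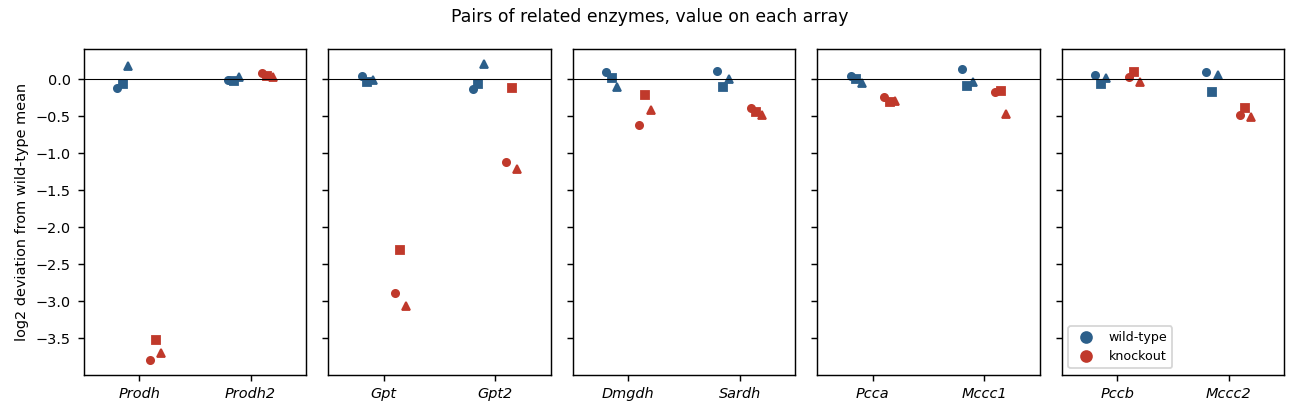
Log2 deviation from the Mir137+/+ mean (y) of the enzymes of each pair on each array, Mir137+/+ in blue and Mir137−/− in red, marker shape giving the replicate. Prodh, Gpt and Mccc2 lie below their partners in Mir137−/−, and the pairs Dmgdh with Sardh and Pcca with Mccc1 overlap.

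Other enzymes and carriers of amino acid breakdown outside the set were counted for comparison, from a list of 52 genes of which 47 were measured. Here 1 rose, 4 fell, 11 had an adjusted p below 0.05, of which 10 were lower, and the median was -0.20. Over all genes tested, 2.34% rose and 3.34% fell. An adjusted p below 0.05 was reached by 6.9% of all genes on the lower side and 5.07% on the higher side. The 4 that fell were Ddo, the D-aspartate oxidase (-1.03, adjusted p = 0.00213), Sqor, which oxidises hydrogen sulfide (-0.95, adjusted p = 0.00157), Abat, the GABA and beta-alanine transaminase (-0.93, adjusted p = 0.00144), and Shmt2, the mitochondrial serine hydroxymethyltransferase (-0.60, adjusted p = 0.00504, limma). Without the arrays with high Xist, which leaves 1 Mir137+/+ array, the differences were -0.81, -0.98, -0.93 and -0.72 in the same order, and 0 of the 4 were called. Averaging all probe sets of a gene gave -0.64 for Ddo, -0.32 for Sqor (adjusted p = 0.0501), -0.41 for Abat and -0.43 for Shmt2, and of the 4 Ddo alone kept its call. When probe sets of types _s_at and _x_at were dropped, Shmt2 differed by -0.39 (adjusted p = 0.0671, limma).

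The single gene that rose was Ppm1k, the phosphatase that switches on the branched-chain keto acid dehydrogenase. It was at 10.95, 11.05 and 11.08 in Mir137−/− and 10.53, 10.42 and 10.37 in Mir137+/+, so all Mir137−/− arrays were higher. The difference of 0.59 (SE 0.09, adjusted p = 0.00565, limma) was only just over 1.5-fold, and the call was lost in 7 of 17 alternative fits, where the difference ranged from 0.50 to 0.63. Bckdk, the kinase that acts against it, differed by -0.17 (adjusted p = 0.390, limma).

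Of 9 measured regulators of hepatic amino acid breakdown, 1 fell, beside 3.34% of all genes tested. Cebpb, a transcription factor induced by glucagon and glucocorticoids in liver, was at 10.13, 10.45 and 10.05 in Mir137−/− and 10.87, 11.02 and 10.79 in Mir137+/+. All Mir137−/− arrays were lower, by 0.68 on average (SE 0.13, adjusted p = 0.0131, limma), and the call was lost without the arrays with high Xist (-0.66, adjusted p = 0.229), with sex as a term (adjusted p = 0.148), without Mir137+/+ replicate 2 (-0.62, adjusted p = 0.0543, limma) and under the methods' test (adjusted p = 0.0805). Klf15, a factor that drives many of these enzymes in fasting, differed by -0.19 (adjusted p = 0.341), and Gcgr, the glucagon receptor, by 0.23 (adjusted p = 0.117, limma). Nr3c1, the glucocorticoid receptor, differed by -0.36 (adjusted p = 0.0791, limma), and Hnf4a, a master regulator of hepatocyte genes, by -0.34 (adjusted p = 0.0817, limma). The median over the 9 was -0.15.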

How the data were processed

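The authors deposited a log2 level for each probe set on 6 arrays. The methods of the study name RMA with a baseline-to-mean step, the labels name GCRMA without a version, and which was used is unsettled here. The probe set definition file is not given in the sources used here. Array medians were 4.88 to 4.91, and no further normalization was applied. No detection calls were used, so low values had no stated floor. The number of arrays limits the precision, and an exact test of 3 against 3 reaches 0.1 at best.

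Of 45101 probe sets, 64 controls were left out. The platform annotation gave 34945 probe sets 1 symbol, 932 several and 9160 none, and 34741 matched the mouse gene table (GRCm38) by Entrez gene. Each of 18193 genes was read from its probe set with the highest mean over 6 arrays among those annotated to it alone. Genotypes were compared with limma (version 3.58.1, R version 4.3.3; lmFit, eBayes, no covariate), with Benjamini-Hochberg adjustment over all genes. The fit was tested on simulated data. Replicate numbers carried no stated pairing.

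The enzymes and lists were chosen with earlier results of these data known. All 51 enzymes are named, with values on every array for those with an adjusted p below 0.05, and further such values were chosen after they were seen. From the lists of other enzymes and of regulators, the called genes and the 4 of smallest p in each are named, with Klf15, Gcgr and Nr3c1, and from marker lists that stood apart on an array the 2 brightest genes. Bckdk was chosen after its value was seen. A pair of Sds and Sdsl was planned and not tested. Alternatives were the methods' t-test, no fold threshold, eBayes with trend and robust, quantile normalization, leaving out the dimmest 40% of genes or the _s_at and _x_at probe sets, averaging the probe sets of a gene, a replicate block, sex as a term, and leaving out arrays. Marker lists of kidney, erythroid precursor, Kupffer, endothelial, stellate and bile duct cells were read as well. Of these, 2 of 8 erythroid genes and 1 of 7 stellate genes fell and 0 in the others, beside 3.34% of all genes tested.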

Additional observations from a re-analysis of the deposited data

How the results depend on the processing

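The 5 enzymes that fell became 3 under the methods' t-test with adjustment and 3 with sex as a term (Hal and Aass lost), 2 without the arrays with high Xist and 17 with no fold threshold, and 4 to 8 with single arrays left out. Sex as a term leaves Mir137−/− against Mir137+/+ replicate 1 alone, assumed to vary like the other arrays. No enzyme of the set rose under any alternative. Of the other breakdown enzymes, the 1 that rose became 0 with sex as a term, without the arrays with high Xist and without the arrays with pancreas transcripts, and 0 to 1 with single arrays left out. The 4 that fell became 10 with no fold threshold, 1 when the probe sets of a gene were averaged and 0 without the arrays with high Xist. The median of all enzymes was -0.36 without the arrays with pancreas transcripts and -0.24 with quantile normalization. It was -0.31 to -0.27 with single arrays left out.

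Small differences changed sign. With quantile normalization Ftcd was at 0.02 and Auh at 0.01. When the probe sets of a gene were averaged, Hgd was at 0.09 and Pcca relative to Mccc1 at 0.12. With sex as a term, and likewise without the arrays with high Xist, Tat was at -0.08, Gldc at 0.01 and Pccb at -0.02. Without the arrays with pancreas transcripts Got1 was at -0.17, Tat at -0.38 and Pccb at -0.04. With single arrays left out the ranges were -0.12 to 0.21 for Got1, -0.12 to 0.04 for Ftcd, -0.24 to 0.30 for Tat, -0.19 to 0.06 for Hgd, -0.18 to 0.02 for Bcat2, -0.11 to 0.02 for Auh, -0.01 to 0.06 for Pccb, -0.08 to 0.15 for Dmgdh relative to Sardh and -0.11 to 0.06 for Pcca relative to Mccc1. None of these had passed the test, and the cause was not tested. Over 58 genes, the 48 enzymes and 10 others, 909 of the recomputed differences kept direction and side of the threshold, 33 lost the call, 18 gained it and 23 changed sign.

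Samples with the same replicate number correlated in their deviations from the group means at 0.10, 0.24 and 0.03. Samples with different numbers were not correlated for comparison, so these values cannot decide whether the numbers are pairs. As no pairing was stated, they were not taken as pairs. With a replicate block the same 5 enzymes fell, and 10 rather than 17 enzymes had an adjusted p below 0.05.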
